A study of Danio rerio with 15 samples.

Results

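Rab GTPases, vesicle coat subunits and Vps, Hps and Bloc1s genes were followed through zebrafish melanoma and skin. The members were the probe sets whose only gene symbol starts with rab and a number, with the letters of a coatomer, adaptor, Vps or Hps subunit, or with bloc1s. 107 probe sets of 88 genes met this rule, of 15502 probe sets tested (8793 genes had a probe set with 1 symbol). The 3 probe sets of copb2 were kept apart, which left 104 probe sets of 87 genes. Not every member is a Rab or a coat: rab3ip, rab3gap1, rab3gap2 and rab5if are only named after a Rab, vps9d1 is named after a protein domain, and the other Vps genes encode mainly tethers and sorting complexes of endosomes.

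Total RNA was measured on 15 Affymetrix arrays, 1 per sample. There were 6 melanomas and 6 pieces of skin cut right beside a melanoma (called mutant skin), all of genotype mitf-BRAFV600E;p53-/-. These fish lack p53 and carry mutant BRAF under the mitf promoter, which is active in pigment cells. The reference tissue was 3 pieces of skin from the side of wild-type fish of genotype Tu. Fish were 4 to 8 months old. Wild-type fish differ from the others in transgene, p53 and possibly strain background, and these cannot be told apart. The labels do not say that the pieces came from different fish, so p-values measure the spread between these arrays.

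Rab proteins are small GTPases that mark the membranes of a cell and recruit motors, tethers and coats to them. Coatomer forms the coat of vesicles that return from the Golgi to the endoplasmic reticulum, and adaptor complexes pick cargo for vesicles at the Golgi, the plasma membrane and endosomes. Melanosomes, the pigment granules of melanocytes, are related to lysosomes and depend on this machinery: AP-3 and the BLOC complexes carry enzymes such as tyrosinase from endosomes to the growing melanosome, Rab32 and Rab38 mark the carriers, and the HOPS tether serves fusion with lysosome-related organelles. In mammals, loss of AP-3, BLOC or HPS subunits causes pale hair and skin (Hermansky-Pudlak syndrome in people). Zebrafish with mutant vps18, vps39 or coatomer genes have pigment defects.

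All values are log2 signals whose zero is set for each probe set at a level no source names, so they can be compared between arrays but not between probe sets. Melanoma 6 stood apart from the other melanomas. The mean level of 7 measured melanocyte genes of 13 listed was 2.77 to 3.39 in melanoma 1 to 5 and 0.08 in melanoma 6, against -2.68 to -0.53 in mutant skin and -2.20 to -1.78 in wild-type skin. All 7 were higher in melanoma than in mutant skin by the test used below. Oocyte genes (19 of 27 listed) were high in 7 arrays: melanoma 6 at 3.82, mutant skin 1, 2, 4 and 6, and wild-type skin 1 and 2. Muscle genes (17 of 20 listed) were at -4.89 to -2.94 in melanoma 1 to 5 and 0.94 in melanoma 6, against -0.13 to 2.94 in mutant skin and 2.35 to 3.30 in wild-type skin. Keratinocyte genes (16 of 19 listed) were at -3.38 to -0.78 in melanoma, against -1.71 to 2.07 in mutant skin and 0.74 to 1.81 in wild-type skin. Liver and yolk genes (8 of 13 listed) were at -2.37 to -1.76 in melanoma 1 to 5 and 6.00 in melanoma 6, against -1.60 to 4.97 in mutant skin, highest in mutant skin 4 and 6, and -1.87 to 1.06 in wild-type skin. Exocrine pancreas genes (8 of 13 listed) were at -1.29 to -1.09 in melanoma, against 3.84 and 5.60 in mutant skin 1 and 4, up to 1.34 in the other mutant skin arrays and -0.76 to -0.42 in wild-type skin. The part that these cell types have in the results below was not tested, and in bulk tissue fewer cells of a type and less RNA per cell cannot be told apart.

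The first comparison asked which transport genes differ between melanoma and the skin beside it. In melanoma, 32 of 104 probe sets (29 genes) were higher and 1 was lower at an adjusted p under 0.05 (limma, two-sided, adjusted over all probe sets). Over all probe sets, 6.44% were higher and 4.35% lower. The median log2 change of the members was 0.72, beside 0.00 over all probe sets, and 81 of the 104 changes were above 0. In 8 members every melanoma lay above every mutant skin array, and in 0 every melanoma lay below; over all probe sets these shares were 1.40% and 0.961%. By role, 4 of 4 probe sets of AP-2 and 5 of 6 each of AP-3 and of HOPS and CORVET were raised, and 8 of 43 of the Rab GTPases.

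**Figure D1:**
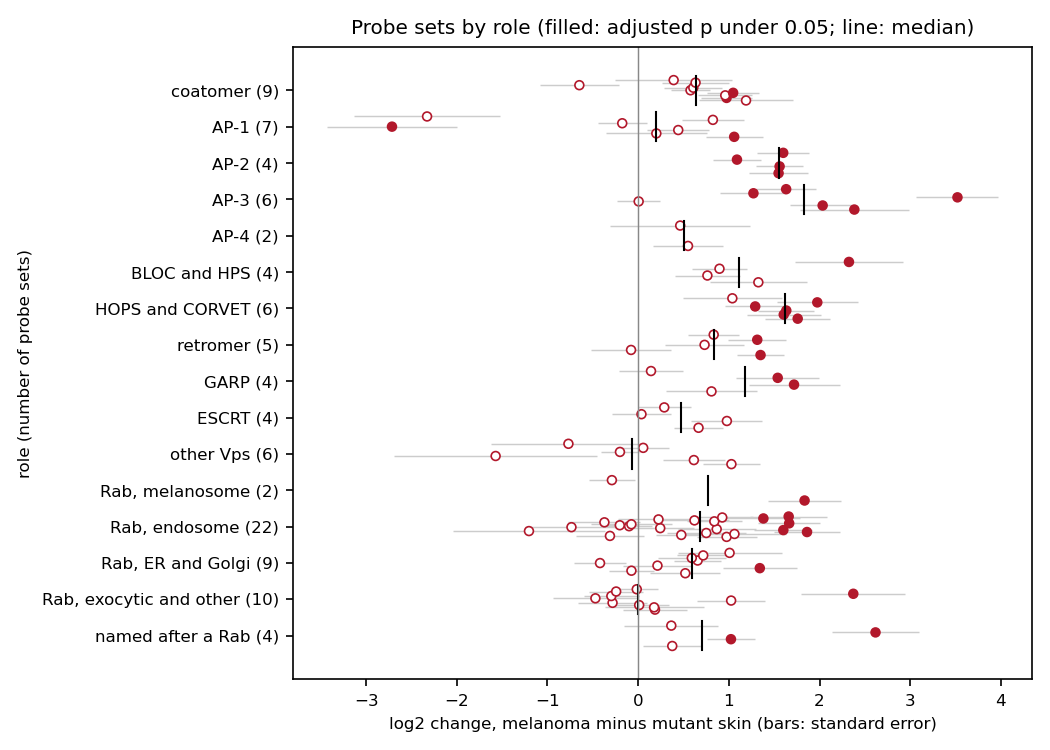
Log2 change in melanoma minus mutant skin (x axis, with standard error bars) of the 104 member probe sets, by role (y axis, number of probe sets in brackets). Filled points have an adjusted p under 0.05 and black lines are medians; 5 of 6 AP-3 points and 4 of 4 AP-2 points are filled on the right, and 1 AP-1 point is filled on the left.

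Melanoma 6 was the lowest of the melanomas in 58 of the 104 members, and this was not counted over all probe sets. Its median over all probe sets was also the lowest of the melanomas, at -0.32 against -0.17 to 0.10. Without melanoma 6, 48 members were raised, among them all 32, and 2 were lowered (ap1m2 and ap1s3b), with 12.9% and 7.08% of all probe sets. Over all probe sets, too, all 998 raised with all arrays were raised there. Without the 7 arrays high in oocyte genes, which leaves 5 melanomas, 2 mutant skin and 1 wild-type skin array, 28 were raised and the same 2 lowered, with 9.26% and 9.79% of all probe sets. Of the 32 raised with all arrays, 25 were also raised there. Over all probe sets, 721 of the 998 raised with all arrays were also raised there. The count of raised members was 19 without mutant skin 1 and 19 without melanoma 5, with 3.61% and 3.76% of all probe sets raised. The count of lowered members was 0 without melanoma 1, 2, 3 or 5, with 2.61% to 3.25% of all probe sets lowered. Of the 33 called members, 18 probe sets of 17 genes passed under each of the 23 alternatives run: rab3ip, rab3c, rab4a, rab14, rab20, rab32a, ap2b1, ap2m1a, ap2m1b (both probe sets), ap3b1a (1 of 2 probe sets), ap3m2, ap3s2, vps16, vps26a, vps29, vps33a and vps41. How many of the calls over all probe sets passed under each alternative was not counted. Below, a call is said to need an array if it ended when that array was left out. Leaving out an array also changes the estimated spread and the adjustment over all probe sets. A lost call therefore does not tell which arrays it rests on.

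AP-3, the adaptor of the endosome-to-melanosome route, had 5 of 6 probe sets raised, with a median change of 1.83. The largest change of any member was that of ap3m2, which encodes a medium subunit known as the neuronal form in mammals. Its signal was 0.03 to 3.06 in melanoma (median 2.41), -2.23 to -0.93 in mutant skin (median -1.11) and -2.12, -1.37 and -1.02 in wild-type skin. All 6 melanomas lay above every skin array, with melanoma 6 the nearest to them. This was a rise of 11.5-fold over mutant skin (log2 change 3.52 ± 0.45 SE, adjusted p = 0.00137) and 12.7-fold over wild-type skin (adjusted p = 0.00125). The other medium subunit gene, ap3m1, spanned -0.03 to 0.48 in melanoma, against -0.06 to 0.57 in mutant skin, with a change of 0.01 (adjusted p = 0.994).

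The large subunit gene ap3b1a, whose counterpart is mutated in the pale pearl mouse, has a pair of probe sets. One had 0.23 to 2.08 in melanoma (median 1.46), -1.53 to -0.13 in mutant skin (median -0.60) and -0.92, -1.58 and -1.34 in wild-type skin, with no overlap between melanoma and skin. It rose 4.1-fold over mutant skin (log2 change 2.03 ± 0.36, adjusted p = 0.00405). The other rose 5.22-fold (2.38 ± 0.60, adjusted p = 0.0217), but melanoma 6 at -1.08 lay below 4 of the 6 mutant skin arrays. The small subunit genes rose as well. For ap3s2 the melanomas had -0.12 to 1.47 (median 0.63), mutant skin -1.54 to -0.08 and wild-type skin -0.88, -1.86 and -1.51. Only melanoma 6 fell within the range of mutant skin, and the rise was 3.1-fold (log2 change 1.63 ± 0.33, adjusted p = 0.007). Its partner ap3s1 rose 2.41-fold (adjusted p = 0.038), with melanoma 6 at the bottom of the melanomas and within mutant skin. The ap3s1 call ended when melanoma 1, 2, 3, 4 or 5, any mutant skin array but the third, or wild-type skin 2 was left out, and with the oocyte level as a covariate (adjusted p up to 0.103). The second ap3b1a call ended in the absence of melanoma 2, 3 or 5 and with that covariate (up to 0.0558).

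**Figure D2:**
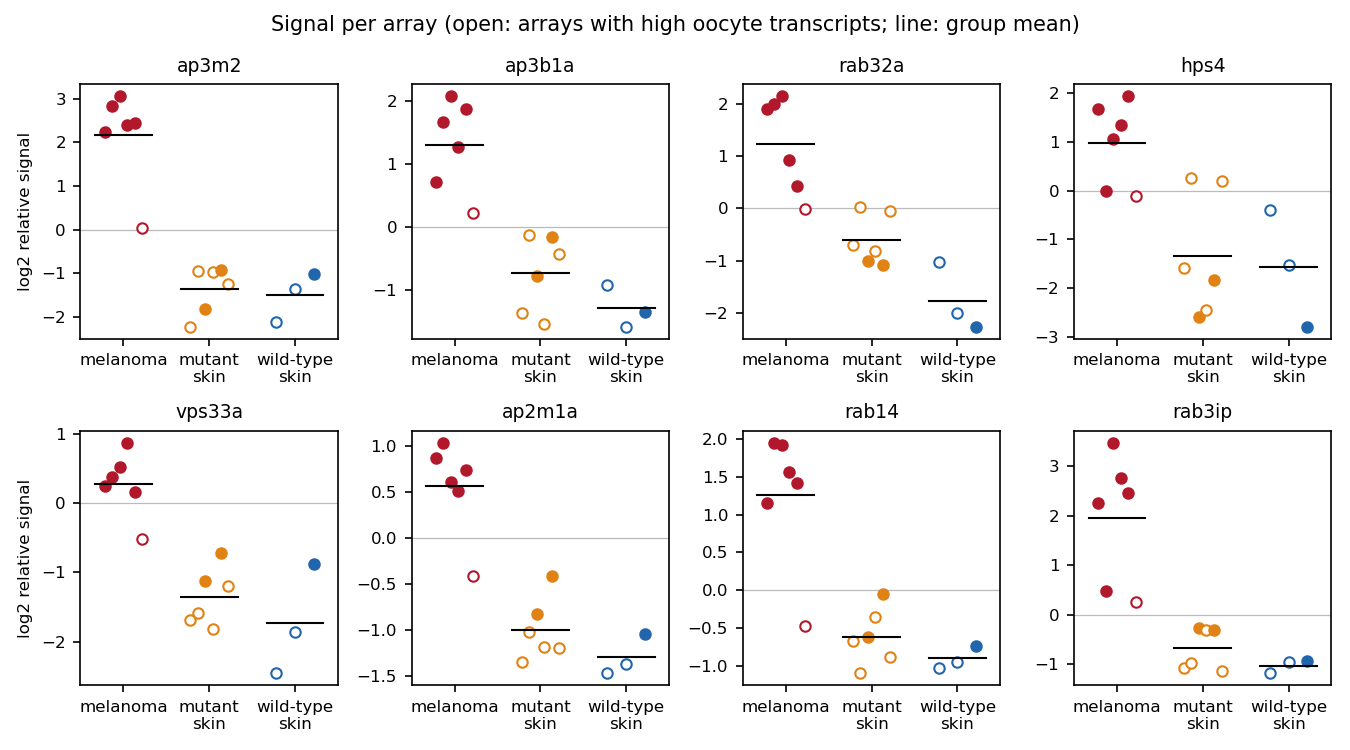
Log2 relative signal (y axis) of 8 members in each array by group, with lines at group means. Open points are the arrays high in oocyte genes; the open melanoma point is melanoma 6, which is the lowest melanoma in all 8 panels and still above every skin array for ap3m2, ap3b1a, vps33a, ap2m1a and rab3ip.

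AP-2 is the clathrin adaptor of endocytosis at the plasma membrane, and its 4 probe sets all rose, with a median of 1.55. For the medium subunit gene ap2m1a the signal was -0.41 to 1.04 in melanoma (median 0.68), -1.34 to -0.41 in mutant skin (median -1.10) and -1.47, -1.37 and -1.04 in wild-type skin. The 6 melanomas lay above all skin arrays, though melanoma 6 and mutant skin 5 differed by less than the printed digits. It rose 2.95-fold (log2 change 1.56 ± 0.26, adjusted p = 0.00337). The large subunit gene ap2b1 had -0.54 to 1.58 in the melanomas (median 0.99), -1.31 to -0.06 in mutant skin (median -0.82) and -0.52, -0.92 and -0.34 in wild-type skin, and rose 2.92-fold (adjusted p = 0.00932). The copy ap2m1b of the medium subunit gene rose 3.03-fold and 2.13-fold by its probe sets (adjusted p = 0.00429 and 0.0182). In these 3 probe sets melanoma 1 to 5 lay above every mutant skin array and melanoma 6 did not.

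Of the 7 probe sets of AP-1, the clathrin adaptor of the Golgi and recycling endosomes, 1 rose and 1 fell, and the median was 0.20. The large subunit gene ap1b1 rose 2.08-fold (adjusted p = 0.0435), with 3 melanomas above every mutant skin array. That call ended when any of melanoma 2 to 5, any mutant skin array but the sixth, or wild-type skin 2 or 3 was left out, and without the arrays high in oocyte genes (adjusted p up to 0.105). The member that fell, ap1m2, is taken up below with other members of that direction. The 2 measured genes of AP-4, an adaptor of the Golgi, changed by 0.55 (ap4b1) and 0.46 (ap4m1), and neither passed.

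Of the 4 measured HPS and BLOC probe sets 1 rose, hps4, and the median was 1.11. The product of hps4 is a subunit of BLOC-3, which in mammals activates Rab32 and Rab38. Its signal was -0.11 to 1.94 in melanoma (median 1.20), -2.60 to 0.26 in mutant skin (median -1.71) and -0.41, -1.53 and -2.80 in wild-type skin. Melanoma 1, 3, 4 and 5 lay above all skin arrays, and melanoma 2 and 6 lay just below the 2 highest mutant skin arrays. The rise was 5.01-fold (log2 change 2.32 ± 0.59, adjusted p = 0.0226). The call needed each of melanoma 1, 4 and 5 and of mutant skin 1, 3 and 4 (adjusted p up to 0.059 with 1 of them left out). Subunits of BLOC-1, the complex that sorts melanosome cargo at endosomes, had changes of 1.33 (bloc1s1), 0.90 (bloc1s4) and 0.76 (bloc1s3), with adjusted p of 0.131, 0.0766 and 0.197.

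The melanosome Rab measured here was rab32, in 2 copies, and rab38 and rab27 were not analysed here. The rab32a signal was -0.02 to 2.15 in melanoma (median 1.42), -1.08 to 0.02 in mutant skin (median -0.75) and -1.02, -2.01 and -2.27 in wild-type skin. Melanoma 1 to 5 lay above every skin array and melanoma 6 lay between the 2 highest mutant skin arrays. It rose 3.57-fold over mutant skin (log2 change 1.83 ± 0.40, adjusted p = 0.0113) and 7.97-fold over wild-type skin (adjusted p = 0.00215). Its copy rab32b changed by -0.29 (adjusted p = 0.533).

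The HOPS complex and the related CORVET complex tether endosomes and lysosomes, and 5 of their 6 measured probe sets rose, with a median of 1.62. The shared core subunit gene vps33a, mutated in the pale buff mouse, had -0.52 to 0.87 in melanoma (median 0.31), -1.81 to -0.73 in mutant skin (median -1.40) and -2.46, -1.86 and -0.88 in wild-type skin. No melanoma overlapped the skin arrays, and the rise over mutant skin was 3.1-fold (log2 change 1.63 ± 0.31, adjusted p = 0.00513). For the HOPS subunit gene vps41 the melanomas had -0.70 to 2.2 (median 1.33), mutant skin -1.75 to -0.08 (median -0.96) and wild-type skin -1.73, -1.04 and -0.47. All but melanoma 6 lay above the skin, and the rise was 3.93-fold (adjusted p = 0.013). The core genes vps16 and vps18 rose 3.38-fold and 3.04-fold (adjusted p = 0.00724 and 0.0224). In vps16 melanoma 6, at -0.48, was again the one melanoma among the skin arrays, and in vps18 the melanomas had a narrow range, 0.01 to 0.59, beside -2.48 to 0.03 in mutant skin. The HOPS gene vps39 rose 2.45-fold (adjusted p = 0.0238) with no overlap between melanoma (lowest 0.09, median 0.99) and mutant skin (median -0.29, highest -0.10), while wild-type skin at 0.14, -0.56 and 0.71 did overlap melanoma. The CORVET gene vps8 had a change of 1.04 with an adjusted p of 0.259. The vps39 call needed melanoma 1 and 5 and mutant skin 1, and it also ended without the arrays high in oocyte genes, where the change was larger, 1.52 (adjusted p = 0.0599), and with the oocyte covariate (1.03, adjusted p = 0.0585). The vps18 call needed melanoma 2 and mutant skin 1 and 4, and ended with arrays centred on their medians (up to 0.052).

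Retromer, which retrieves cargo from endosomes, had 2 of 5 probe sets raised, with a median of 0.83. Its core subunit genes vps26a and vps29 rose 2.55-fold (log2 change 1.35 ± 0.26, adjusted p = 0.00564) and 2.48-fold (1.31 ± 0.32, adjusted p = 0.0174). For vps26a the melanomas had -0.08 to 1.35 (median 0.98), mutant skin -0.84 to 0.10 (median -0.58) and wild-type skin -0.40, -0.69 and -0.93. For vps29 the melanomas had -0.58 to 1.33 (median 1.18), mutant skin -0.95 to -0.03 (median -0.52) and wild-type skin -1.33, -1.22 and -1.08. In both, melanoma 1 to 5 lay above every skin array and melanoma 6 within mutant skin. The third core gene, vps35, changed by 0.83 (adjusted p = 0.072), and the other vps26 genes by 0.73 (vps26bl) and -0.08 (vps26b).

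In GARP, a tether of vesicles arriving at the Golgi, both probe sets of vps52 rose, 3.29-fold and 2.91-fold (adjusted p = 0.0408 and 0.0436), with overlap between melanoma (-0.73 to 2.54 and -0.52 to 1.39) and mutant skin (-2.20 to -0.60 and -1.96 to 0.73), while vps51 and vps53 changed by 0.81 and 0.14 and did not pass. The vps52 calls were lost under 14 and 13 of the 23 alternatives (adjusted p up to 0.114), and both needed each of melanoma 1, 2, 4 and 5, mutant skin 1, 3, 4 and 5 and wild-type skin 2. One also needed mutant skin 2, and the other melanoma 3 and wild-type skin 3. None of the 4 ESCRT probe sets, whose complexes bud vesicles into endosomes, passed, with changes of 0.04 (vps37a) to 0.98 (vps36). The SM protein gene vps45 had changes of 1.03 (adjusted p = 0.0516) and 0.61 by its probe sets.

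Coatomer, without copb2, had 2 of 9 probe sets raised and a median of 0.63. The delta subunit genes arcn1a and arcn1b are not among these 9, since the rule does not take their symbols. They changed by 0.67 and 0.14 and did not pass (adjusted p = 0.162 and 0.812). The epsilon subunit gene cope rose 2.07-fold (log2 change 1.05 ± 0.28, adjusted p = 0.0303), at -0.06 or higher in melanoma (median 0.84), -0.85 to 0.08 in mutant skin (median -0.54) and -0.23, -1.21 and -1.35 in wild-type skin. Here melanoma 4 and not melanoma 6 was the one within the range of mutant skin. For the alpha subunit gene copa 1 of 2 probe sets rose, 1.97-fold (adjusted p = 0.041), and the other had a larger change, 1.19, with a wider spread (adjusted p = 0.162). The beta subunit gene copb1 had a change of 0.96 ± 0.30 (adjusted p = 0.0527). The zeta subunit genes copz1 and copz2 changed by 0.63 and 0.39, and the 3 probe sets of the gamma subunit gene copg2 by -0.65, 0.58 and 0.61, none past the threshold and with signs that differed.

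The cope call needed each of melanoma 1, 2, 3 and 5 and of mutant skin 1, 3, 4 and 5 (adjusted p up to 0.0751 with 1 left out). The copa call ended under 15 of the 23 alternatives (up to 0.095) and needed each of melanoma 1 to 5, mutant skin 1, 3, 4 and 5 and wild-type skin 2 and 3. Without melanoma 6, 5 of the 9 probe sets passed, copb1 among them with a change of 1.12 (adjusted p = 0.0157).

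Of 22 probe sets of endosomal Rabs 5 rose, with a median of 0.69, and the other 17 had changes of -1.20 (rab15) to 1.06 (rab11bb). The gene rab14, for transport between Golgi and endosomes, had -0.47 to 1.95 in melanoma (median 1.48), -1.10 to -0.04 in mutant skin (median -0.65) and -1.02, -0.94 and -0.73 in wild-type skin. Melanoma 1 to 5 were all at least 1.15 and melanoma 6 lay among the skin arrays. The rise was 3.63-fold (log2 change 1.86 ± 0.36, adjusted p = 0.00585).

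The recycling Rab gene rab4a rose 3.17-fold (log2 change 1.67 ± 0.34, adjusted p = 0.00747), at -0.25 to 1.94 in melanoma (median 1.48), -0.97 to 0.06 in mutant skin (median -0.42) and -0.57, -0.63 and -0.33 in wild-type skin. The gene rab20, of endosomes and phagosomes, rose 3.03-fold (1.60 ± 0.32, adjusted p = 0.00677) with no overlap, at -0.04 to 1.56 in melanoma, -1.31 to -0.19 in mutant skin and -0.49, -1.92 and -1.80 in wild-type skin. In both, melanoma 1 to 5 lay above every skin array. The late endosome gene rab7a had -0.33 to 1.43 in the melanomas (median 1.05), -2.03 to 0.02 in mutant skin (median -0.79) and -1.66, -0.94 and -0.46 in wild-type skin. It rose 3.16-fold (adjusted p = 0.0235) and the early endosome gene rab5b 2.6-fold (adjusted p = 0.0434). Other rab5 genes, rab5aa, rab5ab and rab5c, did not pass. The rab7a call needed melanoma 1, 3, 4 and 5, mutant skin 1 and the arrays high in oocyte genes, and without these arrays its change was 1.05 (adjusted p = 0.173). The rab5b call ended under 15 of the 23 alternatives (up to 0.176) and needed each of melanoma 1 to 5, mutant skin 1 to 4 and wild-type skin 2 and 3.

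Rabs of the endoplasmic reticulum and Golgi had 1 of 9 probe sets raised: rab1ab, of the route to the Golgi, rose 2.53-fold (log2 change 1.34 ± 0.41, adjusted p = 0.0486). The other 8 had changes of -0.42 (rab1bb) to 1.01 (rab6a). Each single array except melanoma 6 and mutant skin 4 ended the rab1ab call when left out (adjusted p up to 0.139). Of 10 probe sets of exocytic and other Rabs 1 rose, and their median change was -0.00. It was rab3c, whose mammalian counterpart sits on synaptic and secretory vesicles. Its signal was -0.47 to 3.61 in melanoma (median 2.68), -0.70 to 1.23 in mutant skin (median -0.32) and -0.39, -0.55 and 0.08 in wild-type skin. Melanoma 1 to 5 were all at least 2.39, above every skin array, and melanoma 6 was not. The rise was 5.18-fold (2.37 ± 0.57, adjusted p = 0.0174).

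Among the genes only named after a Rab, rab3ip had the largest rise of any member after ap3m2. In mammals its product, Rabin8, is an exchange factor that activates Rab8. The signal was 0.27 to 3.47 in melanoma (median 2.35), -1.12 to -0.27 in mutant skin (median -0.64) and -1.18, -0.95 and -0.94 in wild-type skin. Melanoma 2 and 6 were the lowest melanomas, at 0.48 and 0.27, and still above every skin array. It rose 6.14-fold over mutant skin (log2 change 2.62 ± 0.48, adjusted p = 0.00461). Of the pair that makes the Rab3 GTPase-activating complex, rab3gap2 rose 2.03-fold (adjusted p = 0.0239) and rab3gap1 changed by 0.38 and did not pass. The rab3gap2 call needed melanoma 3 and 5, mutant skin 1 and the arrays high in oocyte genes (adjusted p up to 0.0788).

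By their probe sets, genes of the same family did not always move alike. Such genes are called copies here, whether or not they are duplicates of the same gene. In 14 families with more than 1 measured copy, the difference between copies within each array was compared between the 6 melanomas and the 6 mutant skin arrays for 30 pairs, chosen after the values had been seen (exact permutation test, two-sided, 924 arrangements, smallest possible p = 0.00216). 4 pairs had a p under 0.05 after adjustment over the 30. The difference ap3m2 minus ap3m1 was 0.01 to 3.09 in melanoma, against -2.18 to -0.92 in mutant skin, 3.52 ± 0.48 apart (exact p = 0.00216, adjusted p = 0.0325). For rab1ab minus rab1ba the groups were 1.13 ± 0.27 apart (exact p = 0.00216, adjusted p = 0.0325), again with no overlap. For rab4a minus rab4b they were 2.04 ± 0.45 apart and for rab32a minus rab32b 2.12 ± 0.51 apart, with only melanoma 6 inside the range of mutant skin (exact p = 0.00433 and adjusted p = 0.0325 for both).

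Other pairs did not reach the threshold, for instance ap2m1a minus ap2m1b, 0.22 ± 0.15 apart (exact test, adjusted p = 0.321), and vps26a minus vps26b, 1.43 ± 0.48 apart (adjusted p = 0.0714). With 1 array left out, the ap3m2 difference was 3.29 to 3.91, that of rab1ab 0.97 to 1.24, that of rab4a 1.73 to 2.27 and that of rab32a 1.90 to 2.45. The exact test has 462 arrangements there, and its p was 0.00216 to 0.00866 for these 4 pairs. The adjusted p, 0.0108 to 0.0649, then turns on how many of the 30 pairs reach such a p, so it does not tell which arrays the calls rest on. Without the arrays high in oocyte genes, 5 against 2 arrays, none of these 4 pairs passed (adjusted p = 0.13, exact test). So few arrays allow few arrangements, so this does not tell whether the differences hold there. Probe sets of similar copies can share signal, so a small difference between copies is uncertain. Most copies had 1 probe set, and probe sets of the same gene can differ as well. Those of copg2 changed by -0.65 to 0.61 and those of vps9d1 by -1.57 to 0.06. In the other members with several probe sets the signs did not differ. A copy that did not move was not told apart from a probe set that does not respond.

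**Figure D3:**
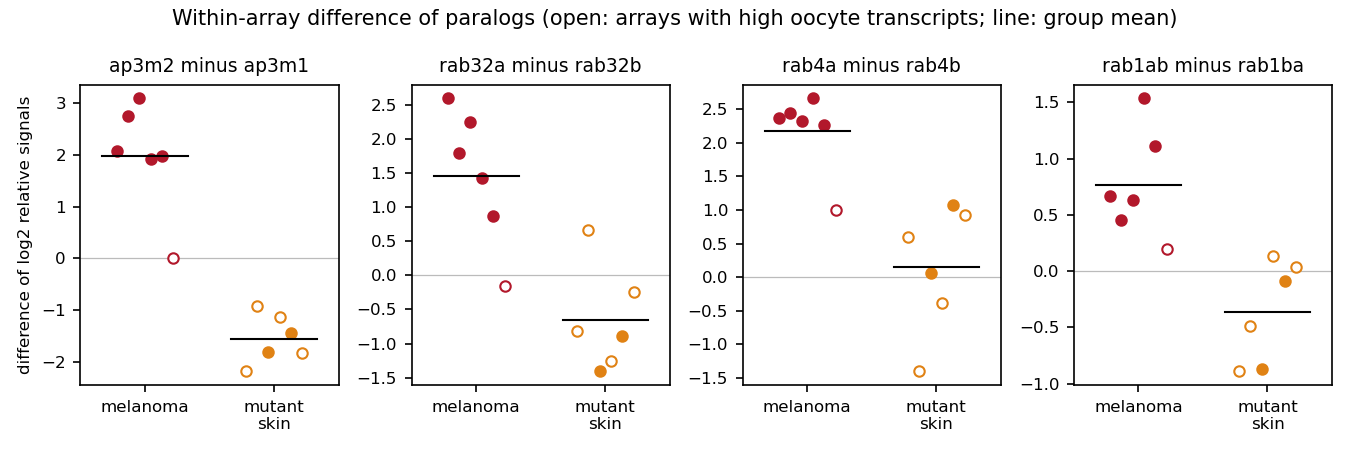
Difference between the log2 relative signals of 2 genes of the same family within an array (y axis), in melanoma and in mutant skin, for the 4 pairs that passed, with lines at group means and open points for arrays high in oocyte genes. Melanoma lies above mutant skin in each panel, and the groups do not overlap for ap3m2 minus ap3m1 and rab1ab minus rab1ba.

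A few members went the other way, and those named here beyond ap1m2 and rab25a were picked after their values had been seen. The medium subunit gene ap1m2, the epithelial form in mammals, had -1.64 to 2.58 in melanoma (median -1.03), 0.91 to 3.38 in mutant skin (median 2.35) and 2.49, 0.58 and -0.69 in wild-type skin. Melanoma 1 to 5 lay below every mutant skin array and melanoma 6 within their range. The log2 change was -2.71 ± 0.72 (6.56-fold lower, adjusted p = 0.0265), and -3.32 without melanoma 6 (adjusted p = 0.000921). The call needed melanoma 1, 2, 3 and 5 (adjusted p up to 0.0668) and ended with the oocyte level as a covariate, where the change was -1.52 (adjusted p = 0.0641). Against wild-type skin the change was -1.22 ± 0.88 (adjusted p = 0.398).

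The small subunit gene ap1s3b had -1.98 to 2.75 in the melanomas (median -1.07), 0.20 to 3.68 in mutant skin (median 1.39) and 3.16, 1.69 and 0.26 in wild-type skin, with melanoma 1 to 5 below all skin arrays and melanoma 6 near the top. Its change against mutant skin was -2.33 ± 0.80 (adjusted p = 0.0791), and -2.98 without melanoma 6 (adjusted p = 0.00508), -1.72 without the arrays high in oocyte genes (adjusted p = 0.0195) and -0.66 with the oocyte covariate (adjusted p = 0.171). The endosomal Rab gene rab15 and the probe set of vps9d1 with the widest range did not pass against either skin, and were high in melanoma 6, mutant skin 1, 2 and 6 and wild-type skin 1, all arrays high in oocyte genes. For rab15 these 5 arrays had 1.65 to 3.69 and the other 10 had -0.78 to 0.61. Among those 10 were mutant skin 4 and wild-type skin 2, which also count as high in oocyte genes. In melanoma 6, where ap1m2 had 2.58, the keratinocyte level was -1.10, within the other melanomas, and the oocyte level was 3.82. In wild-type skin 1, 2 and 3 the keratinocyte level was 0.74, 1.81 and 1.60 and the oocyte level 3.99, 1.79 and -1.68. Mutant skin had keratinocyte levels of -1.71 to 2.07 and oocyte levels of -2.41 to 4.55. Whether ap1m2 goes with either level was not tested.

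**Figure D4:**
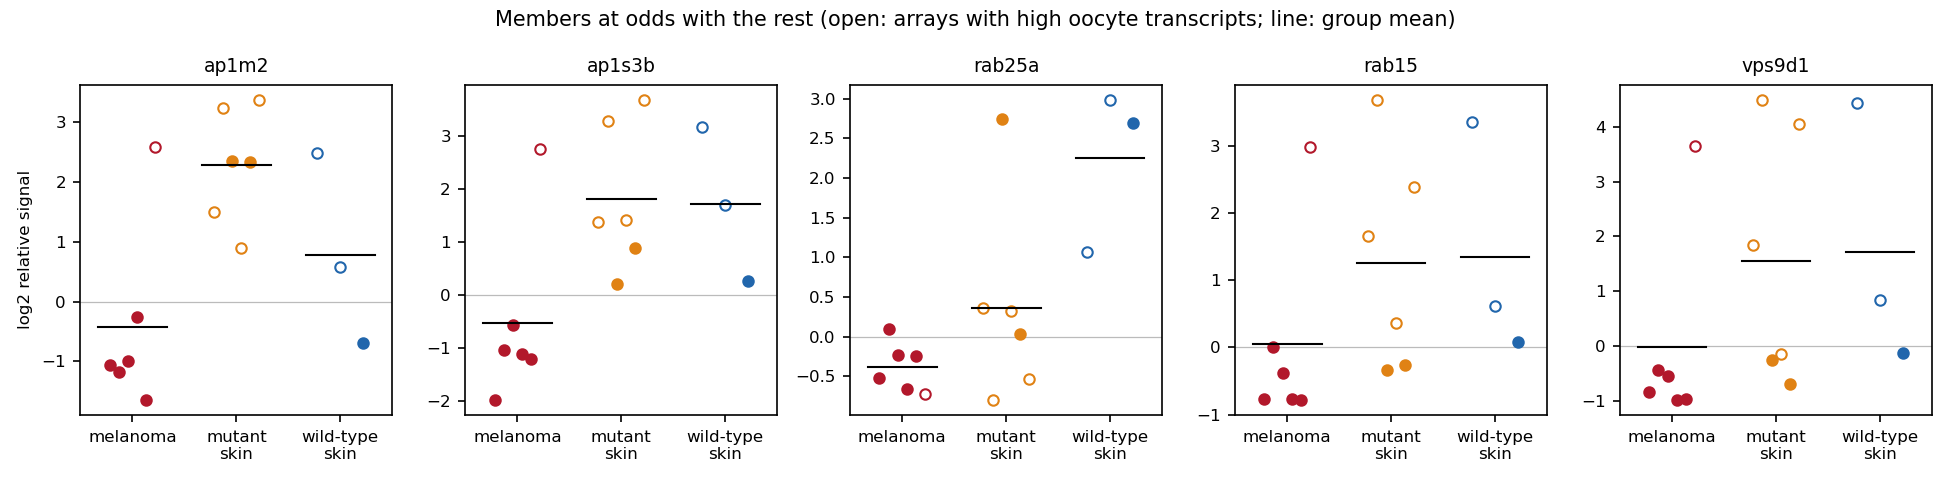
Log2 relative signal (y axis) of 5 members that were not higher in melanoma, in each array by group, with lines at group means and open points for arrays high in oocyte genes. Melanoma 1 to 5 lie at the bottom for ap1m2 and ap1s3b, and all 6 melanomas lie below wild-type skin for rab25a. In the rab15 and vps9d1 panels the high points are all open, but not all open points are high.

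The second comparison set melanoma against wild-type skin. Of the 104 members 33 (32 genes) were higher in melanoma and 1 was lower, beside 7.46% and 6.36% of all probe sets, and the median change was 0.84, beside -0.13 over all. In 28 members every melanoma lay above every wild-type array and in 1 every melanoma lay below, with 7.59% and 8.37% over all probe sets. Without melanoma 6, 45 were raised and 2 lowered (rab25a and ap1s3b), with 11.9% and 8.10% of all probe sets, and without the arrays high in oocyte genes 29 were raised and 1 lowered, with 8.50% of all probe sets raised and 1554 of the 15502 lowered. The melanoma arrays are the same as before, so the counts of the comparisons are not independent. The count of raised members was 15 without wild-type skin 2 and 19 without wild-type skin 3, with 2.81% and 3.26% of all probe sets raised. The count of lowered members was 0 without either of them, with 2.74% and 2.21% of all probe sets lowered, and 2 without mutant skin 5 or wild-type skin 1, with 6.21% and 6.40%. Of the 34 called members, 13 passed under each of the 23 alternatives: rab3ip, rab14, rab20, rab32a, ap2m1a, ap2m1b (both probe sets), ap3b1a (1 of 2 probe sets), ap3m2, ap3s2, vps16, vps26a and vps29. Here too, the share over all probe sets was not counted.

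By role, 3 of 6 AP-3, 4 of 4 AP-2, 2 of 7 AP-1, 3 of 4 HPS and BLOC, 3 of 6 HOPS and CORVET, 2 of 5 retromer and 4 of 9 coatomer probe sets were higher than in wild-type skin. The median change was 1.97 for AP-3, 1.74 for AP-2 and 0.93 for coatomer. The BLOC-3 gene hps4 rose 5.91-fold (log2 change 2.56 ± 0.73, adjusted p = 0.0306), and every melanoma lay above the 3 wild-type arrays. The HOPS genes vps33a and vps41 rose 4.03-fold and 4.47-fold (adjusted p = 0.00385 and 0.0177), and the coatomer gene cope 2.94-fold (adjusted p = 0.00962). The hps4 call needed melanoma 1, 3, 4 and 5 and wild-type skin 2 and 3 and ended with the replicate number as a block (adjusted p up to 0.17), the vps41 call wild-type skin 1 and 2 (up to 0.0756), and the cope call wild-type skin 2 and 3 (up to 0.0667). The vps33a call ended without the arrays high in oocyte genes (adjusted p = 0.0516).

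Several members that had missed the threshold against mutant skin passed against wild-type skin, and whether the changes themselves differ was not tested. The BLOC-1 genes bloc1s1 and bloc1s4 rose 4.89-fold and 3.13-fold (adjusted p = 0.0312 and 0.0106). For bloc1s1 the signal was -0.81 to 1.42 in melanoma (median 0.96), -2.89 to 0.46 in mutant skin (median -0.47) and -1.18, -1.82 and -2.13 in wild-type skin. The coatomer gene copb1 rose 2.91-fold (adjusted p = 0.013), and the AP-1 small subunit gene ap1s2 3.86-fold (log2 change 1.95 ± 0.42, adjusted p = 0.00789). A single probe set each of copg2 (of 3) and of rab5aa, rab41 and vps45 (of 2 each) rose, by 1.79-fold to 2.44-fold (adjusted p = 0.0403 to 0.0451). The other probe sets of these genes did not pass, so the calls do not hold for all probe sets of the genes. Other members passed only against mutant skin, such as rab1ab, rab3gap2, vps18, vps39 and ap3s1, with changes of 0.56 to 1.55 against wild-type skin.

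Leaving out 1 wild-type array ended each of these calls. The bloc1s1 call needed melanoma 1, 2, 3 and 5 and wild-type skin 2 and 3 (adjusted p up to 0.133), that of bloc1s4 wild-type skin 2 and the arrays high in oocyte genes (up to 0.0843), that of copb1 wild-type skin 2 and 3 (up to 0.0718) and that of ap1s2 wild-type skin 2 (0.064). The copg2, rab5aa, rab41 and vps45 calls each needed all of melanoma 1 to 5 and wild-type skin 2 and 3, and ended under 10 to 15 of the 23 alternatives (up to 0.187). They also needed mutant skin 1, 4 and 5 for copg2 and rab5aa, mutant skin 6 for copg2, mutant skin 5 for vps45 and wild-type skin 1 for rab5aa and rab41.

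The member lower than in wild-type skin was rab25a, a Rab of recycling endosomes that is epithelial in mammals. One of its 2 probe sets had -0.72 to 0.10 in melanoma (median -0.38), -0.80 to 2.74 in mutant skin (median 0.18) and 1.07, 2.99 and 2.70 in wild-type skin. All melanomas lay below the wild-type arrays, and 5 of the 6 mutant skin arrays did too. The log2 change in melanoma was -2.63 ± 0.63 (6.2-fold lower than in wild-type skin, adjusted p = 0.0131). The call needed wild-type skin 2 and 3 (adjusted p up to 0.0859). Against mutant skin the change was -0.74 ± 0.51 (adjusted p = 0.41), and -1.42 with the oocyte level as a covariate (adjusted p = 0.048). The other probe set changed by -0.48 against wild-type skin (adjusted p = 0.352) and by -0.10 against mutant skin, so the pair does not give 1 value for the gene.

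The third comparison asked whether mutant skin differs from wild-type skin. By limma 0 of the 104 members were higher in mutant skin and 0 lower, and at an unadjusted p under 0.05 4 were higher (ap1s1, ap1s2, rab32a and vps37a) and 3 lower (copg2, rab18b and rab25a). Over all probe sets the test called 0.0258% higher and 0.168% lower, and at the unadjusted threshold 2.48% and 4.69%. The median change was 0.13, beside -0.11 over all. In 3 members, bloc1s4, vps29 and vps37a, every mutant skin array lay above every wild-type array, and in 0 every one lay below, with 1.50% and 1.61% over all probe sets. The largest changes were those of rab25a, -1.90 ± 0.63 (adjusted p = 0.432), ap1m2, 1.50, and rab32a, 1.16 ± 0.49 (adjusted p = 0.615). Mutant skin 3 had the highest rab25a signal of its group. Without it, this probe set, 1 of the 2 of rab25a, was the 1 member with an adjusted p under 0.05, at a change of -2.37. Over all probe sets 0.155% were lowered there.

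The gene copb2 encodes the beta' subunit of coatomer, and its 3 probe sets were described on their own. In 1 of them wild-type skin was far below all other arrays: the signal was 0.15 to 1.63 in melanoma (median 0.76), -0.76 to 0.30 in mutant skin (median -0.34) and -5.10, -5.14 and -6.64 in wild-type skin. The last of these is the floor of the deposited values. All 12 arrays of the mutant line lay more than 4 log2 units above all wild-type arrays, whatever their oocyte level. The log2 change in mutant skin was at least 5.35 ± 0.42 over wild-type skin (adjusted p = 9.54e-06), and in melanoma at least 6.39 ± 0.42 over wild-type skin (adjusted p = 8.49e-07). This probe set was 1 of the 4 that rose in mutant skin among all 15502.

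The other copb2 probe sets did not show a gap of that size. One had -0.45 to 1.94 in melanoma, -0.48 to 0.51 in mutant skin and -0.89, -1.39 and -1.85 in wild-type skin, and the last had 0.06 to 1.33 in melanoma, -0.75 to 0.09 in mutant skin and -0.65, -0.66 and -0.87 in wild-type skin. In mutant skin over wild-type skin they changed by 1.26 ± 0.44 (adjusted p = 0.478) and 0.48 (adjusted p = 0.881). Over wild-type skin melanoma was 5.19-fold and 2.94-fold higher (adjusted p = 0.0037 and 0.00417). Over mutant skin the 3 probe sets changed in melanoma by 1.03, 1.12 and 1.08, and 1 of them, the last, passed (adjusted p = 0.0696, 0.0621 and 0.0125). Without melanoma 6 all 3 passed, at 1.15, 1.41 and 1.23. Why 1 probe set of the gene is low in wild-type fish was not tested, and genotype, p53 and strain cannot be told apart there.

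**Figure D5:**
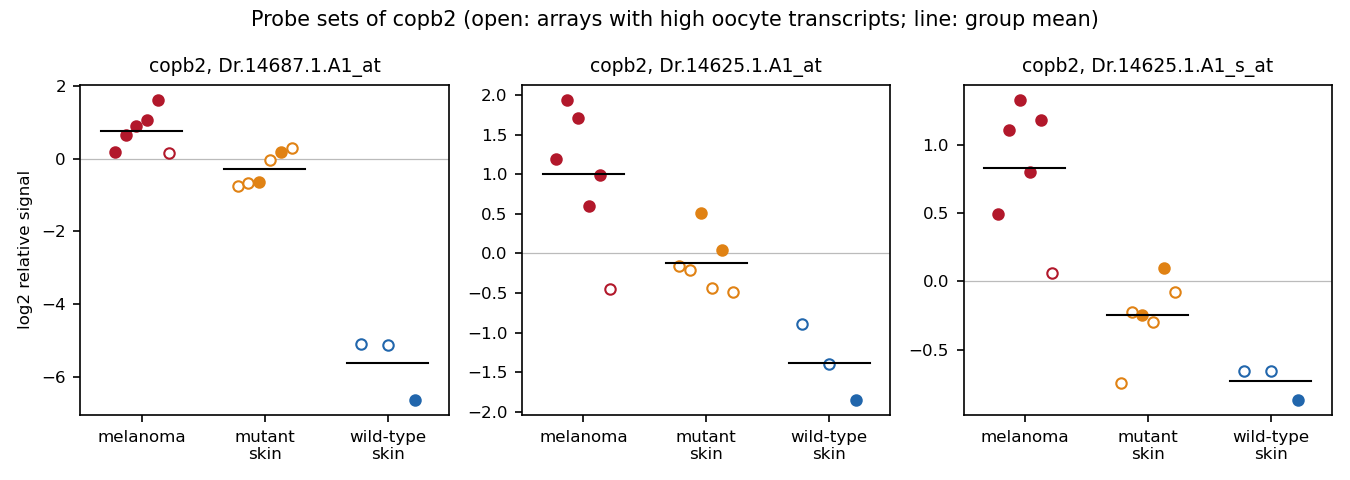
Log2 relative signal (y axis) of the 3 probe sets of copb2 in each array by group, with lines at group means and open points for arrays high in oocyte genes. In the first panel the 3 wild-type arrays lie at -5.10 or lower and all others at -0.76 or higher, while in the other panels wild-type skin lies less than 2 log2 units below 0.

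Genes of the same pathways that the rule does not take were counted from fixed lists. Over all probe sets, 6.44% were raised and 4.35% lowered in melanoma against mutant skin. In melanoma against mutant skin, 3 of 9 probe sets of clathrin, Arf and other coat genes rose: cltcb, a clathrin heavy chain gene, by 1.06 ± 0.24 (adjusted p = 0.013), and both probe sets of its copy cltca by 1.39 ± 0.30 and 0.99 ± 0.28 (adjusted p = 0.011 and 0.0356). Of 11 probe sets of COPII, the coat of vesicles leaving the endoplasmic reticulum, 3 rose and 1 fell, with a median of 0.48. Those that rose were tfg, sec23ip and sec31a, by 1.1, 1.56 and 1.26, and the inner coat gene sec23b had a change of -1.45 ± 0.27 (adjusted p = 0.00499). Of 22 probe sets of Golgi and exocyst tethers 3 rose, trappc8, trappc11 and exoc3, by 1.28, 1.08 and 0.95. Of 11 probe sets of the Rab cycle, such as GDI and exchange factors, 0 passed, and of 7 of motors 2 rose, the dynactin gene dctn5 by 1.31 and the kinesin gene kif3a by 1.41. Of 4 probe sets of melanosome proteins 2 rose, those of the cargo enzymes dct and tyr, by 5.51 and 4.12, and pmelb and lyst changed by -0.13 and -0.03 and did not pass.

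Of these calls, cltcb, the larger cltca change, sec23ip, sec23b, trappc8, dctn5, dct and tyr passed under each of the 23 alternatives. The tfg call needed melanoma 1 to 4 and mutant skin 1 (adjusted p up to 0.0825), and the kif3a call melanoma 1 and 3, mutant skin 1 and 4 and the arrays high in oocyte genes (up to 0.0898). The sec31a call needed melanoma 1 to 3, mutant skin 1, 2, 5 and 6 and the arrays high in oocyte genes (up to 0.113). The trappc11, exoc3 and second cltca calls each needed melanoma 1, 3, 4 and 5, mutant skin 1, 3 and 4 and wild-type skin 2, trappc11 and exoc3 also melanoma 2, trappc11 also mutant skin 6, and exoc3 and cltca also mutant skin 5 (up to 0.103). With the replicate number as a block the exoc3 and second cltca calls also ended, and without the arrays high in oocyte genes that of trappc11. The fit to only the 2 groups compared ended the tfg, sec31a, trappc11, exoc3 and second cltca calls. With the oocyte level as a covariate those of tfg, sec31a, trappc11 and the second cltca probe set were lost. Centring on the median ended the exoc3 and second cltca calls, and quantile normalization that of exoc3.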

How the data were processed

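The authors deposited 1 table of log2 values for 15617 probe sets on 15 Affymetrix zebrafish arrays; the submitters' processing notes name GCRMA, a background correction and normalization, without a version. The deposited log2 values take both signs, are relative to an unstated reference per probe set, and have a floor at -6.64. 115 Affymetrix controls were dropped, and of the remaining 15502 probe sets 10795 carried 1 gene symbol in the platform annotation, 135 several and 4572 none. Gene IDs of all 107 member probe sets matched the RefSeq table, which changed 0 symbols.

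With limma 3.58.1 (R 4.3.3), lmFit and eBayes estimated the 3 group means from all 15 arrays at once, leaving 12 residual degrees of freedom. No filter was used, and each comparison was adjusted by Benjamini-Hochberg over all 15502 probe sets at 0.05. Errors beside log2 changes are standard errors. Member levels are single probe sets, and genes of the same family were compared by the mean of each gene's probe sets. Marker levels are means over genes after subtraction of each gene's mean over the 15 arrays. An array whose oocyte level exceeded the lowest by over 3 (log2) counts as high in oocyte genes. The pipeline was tested on simulated data, and plots were made in Python 3.11.15 (matplotlib 3.10.9).

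Members, lists and tests were chosen with earlier results of these data known. Named were up to 10 raised and 10 lowered members per comparison, and all coatomer, AP-3, HOPS, HPS, BLOC and rab32 probe sets; other members were named after their values were seen. Alternatives were quantile normalization, centring, eBayes with robust and trend, array quality weights, a block for the replicate number, a fit to only the 2 groups compared, each array left out, gene means and a 2-fold minimum. Leaving out the arrays high in oocyte genes and the oocyte level as a covariate were chosen after seeing the data. The number of arrays limits the precision.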

Additional observations from a re-analysis of the deposited data

Results flagged for a closer look

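Within the groups of 6 arrays, 74 sets of values of the named members were searched for 1 array far from the rest, and 5 were found. The search rule marks about 1 in 20 sets by chance if the sets are independent. The 74 sets share the same arrays and are not independent, so whether 5 is more than chance gives was not tested. 4 of the 5 were in melanoma 6. There the AP-3 gene ap3m2 was at 0.0316, with the next melanoma at 2.23. The Golgi and endosome gene rab14 was at -0.47, with the next at 1.15, and the secretory vesicle gene rab3c at -0.47, with the next at 2.39. The AP-1 gene ap1m2 was at 2.58 in melanoma 6, with the next highest melanoma at -0.26. The last was rab25a in mutant skin 3, at 2.74 and so inside the range of wild-type skin, with the next mutant skin array at 0.36.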

How the results depend on the processing

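In melanoma against mutant skin the count of raised members was 25 to 34 under 9 alternatives and 51 with array quality weights (16.3% of all probe sets). Of all probe sets, 4.7% to 9.26% were raised under those 9, not counted for gene means and the 2-fold minimum. With 1 array left out 19 to 48 members were raised, with 3.61% to 12.9% of all probe sets. The count of lowered members was 2 with quantile normalization, array quality weights, the replicate block and without the arrays high in oocyte genes. Over all probe sets 6.47%, 11.4%, 6.78% and 9.79% were lowered there. With 1 array left out 0 to 2 members were lowered, with 2.61% to 7.08% of all probe sets. Against wild-type skin 66 members were raised and 11 lowered with array quality weights (30.2% and 24.9% of all probe sets). The lowered count was 2 with the replicate block and 3 with the oocyte covariate (8.3% and 14.6% of all probe sets). Leaving out 1 array gave 15 to 45 raised and 0 to 2 lowered, with 2.81% to 11.9% and 2.21% to 8.1% of all probe sets. In mutant against wild-type skin array quality weights gave 10 raised and 4 lowered (5.79% and 6.59% of all probe sets). There 1 array left out gave 0 raised and 0 to 1 lowered, with 0.0774% to 0.29% of all probe sets lowered. The cause of these moves was not tested. Against mutant skin, the fit to only the 2 groups also ended the calls of ap1b1, ap3s1, copa, rab1ab, rab5b and vps52, the oocyte covariate those of ap1m2, ap3s1, copa, rab1ab, rab5b, rab7a, vps39 and 1 probe set each of ap3b1a and vps52, the block those of ap1b1, copa and rab5b, and the loss of the arrays high in oocyte genes those of ap1b1, copa, rab3gap2, rab5b, rab7a, vps39 and 1 probe set of vps52. Against wild-type skin the block ended the calls of ap1b1, copg2 and hps4. No named member changed sign while called. Among the values of named members and copy pairs, 2706 kept their side of the threshold, 152 lost it and 85 gained it.

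Title numbers were not taken to pair the arrays: same-numbered melanoma and mutant skin arrays had correlations of -0.0748 to 0.696, 4 of 6 were over 0.1 and 3 of 6 were the best match. With the replicate number as a block 30 members were raised against mutant skin and 37 against wild-type skin, with 9.04% and 9.42% of all probe sets raised. The block also joined each wild-type array with the same-numbered arrays of the mutant line, which are of another genotype and so from other fish. Against wild-type skin the block is therefore not a pairing of fish.

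Limits are 3 wild-type arrays, a lone wild-type array without the oocyte-high ones, assumed to vary like the other groups, and an unknown background level, so that dim probe sets could not be told from bright ones. The array weights stopped before full convergence. No 2 arrays were identical, with a highest correlation of 0.91.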

Other observations

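Against wild-type skin the wider transport lists held further calls, which share the melanoma arrays with the counts above. Over all probe sets, 7.46% were higher and 6.36% lower in this comparison. Of 9 probe sets of clathrin, Arf and other coat genes 4 were higher in melanoma: the light chain gene clta by 1.64 (adjusted p = 0.0198), the Arf gene arf5 by 1.64 (adjusted p = 0.00927) and the heavy chain genes cltca and cltcb by 1.55 and 1.25. The other cltca probe set changed by 0.74 and did not pass (adjusted p = 0.173). Of 22 probe sets of tethers 4 were higher: the exocyst gene exoc7 by 2.38 (adjusted p = 0.00393), the Golgi tether genes cog4 and cog2 by 1.95 and 1.71, and trappc8 by 1.73. The other cog2 probe set went the other way, by -0.51, and did not pass (adjusted p = 0.212). Of 11 probe sets of the Rab cycle 2 were higher, rabif by 2.15 (adjusted p = 0.00717) and gdi2, which extracts Rabs from membranes, by 1.09. Of COPII 2 of 11 were higher, sec23ip by 1.96 and tfg by 1.29, and 1 was lower, sec23b at -1.63 (adjusted p = 0.00603). Of 7 probe sets of motors 2 were higher, dync1li1 by 1.85 and dctn5 by 1.63. Of 4 probe sets of melanosome proteins 2 were higher, dct by 6.51 and tyr by 4.40. The exoc7, sec23b, dctn5, dct and tyr calls passed under each of the 23 alternatives. The others were lost without wild-type skin 2 (clta, arf5, cltca, cog2, rabif, trappc8, gdi2, tfg, dync1li1) or wild-type skin 3 (clta, arf5, cltcb, cog2, cog4, gdi2, tfg, sec23ip, dync1li1), with adjusted p up to 0.126. Those of gdi2, tfg and dync1li1 were also lost without wild-type skin 1, that of gdi2 without melanoma 3, 4 or 5 and that of tfg without melanoma 1, 2, 3 or 4. The fit to only the 2 groups ended the tfg and dync1li1 calls, and the oocyte covariate that of tfg. The cltca and gdi2 calls were lost without the arrays high in oocyte genes too, and that of gdi2 with the replicate number as a block and with the oocyte covariate.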
